A study of Mus musculus with 6 samples.

Results

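Wnt signaling is held in check partly by its own target genes. In the absence of a Wnt ligand, a destruction complex built on Axin and Apc marks β-catenin for degradation, and when the complex fails, β-catenin enters the nucleus, binds TCF/LEF factors and switches on genes that include several inhibitors of the same pathway. These inhibitors act at different steps, outside the cell on the ligand (*Wif1*, *Notum*), at the membrane on the receptors (*Rnf43*, *Znrf3*, *Apcdd1*, *Dkk2*) and inside the cell on Dishevelled or β-catenin (*Nkd1*, *Nkd2*, *Axin2*). A set of 10 such genes, with *Dkk3*, a divergent dickkopf protein whose action on Wnt signaling is less settled, as the last one, was examined in mammary tumors of *Apc* mutant mice. The genes were taken by symbol from the platform annotation of the array. All 10 were found, of 18193 named genes in all, and were read by 24 probe sets, groups of short oligonucleotides that each report 1 signal.

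The tumors were 3 acinar-type mammary tumors from *K14-cre*; *ApcCKO/+* mice, in which Cre recombinase under the keratin 14 promoter deletes part of 1 conditional *Apc* allele in progenitors of the mammary epithelium and in skin. By the study's account each of these tumors carried the deleted allele together with a truncating mutation in the other one. The controls were 3 mammary glands of age-matched mice without *cre*, and the sources used here give neither the *Apc* genotype nor the age of these mice. Total RNA of each sample was hybridized to 1 Affymetrix array, and the labels call the samples of a group biological replicates without naming the animals, so that p-values measure the spread between these samples. The glands are whole tissue with fat, stroma and vessels, and fewer cells of a type and less RNA per cell cannot be told apart in any of the differences given here.

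The authors scaled all arrays to the same target signal, and the trimmed mean was 500 on each of them. Median signals lay between 124 and 171, and over all genes tested the correlation of log2 signals was 0.895 to 0.945 within control glands, 0.923 to 0.938 within tumors and 0.636 to 0.784 between the groups. *Apc* itself was read by 4 probe sets. The one that stood for the gene had 1922, 2077 and 2149 in controls, against 1923, 1526 and 2006 in tumors, which gave a log2 difference (tumor minus control, each the mean of log2 signals) of −0.18 (adjusted p = 0.534 from limma). The other 2 that passed the filter had −0.04 and −0.58. The position of these probe sets relative to the deleted exon was not known here, so that they check neither the deletion nor the labels.

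Of the 10 inhibitors, 9 passed the filter on low signals, which asked for 100 signal units or more on 3 arrays or more. Of these 9, 6 were higher in the tumors than in control glands, 1 was lower and the other 2 were not called, at an adjusted p under 0.05 from limma. The higher genes were *Rnf43*, *Wif1*, *Nkd2*, *Znrf3*, *Axin2* and *Notum*, and the lower one was *Apcdd1*. Among all 12518 genes tested, 16.3% were higher and 16.8% were lower. The median log2 difference was 1.11 over the 9 inhibitors and 0.07 over all genes, and the set was chosen with earlier results of these data known. *Notum* passed the filter only through the tumors, which alone reached a signal of 100, so its place among the genes tested was not independent of its direction. For 6 of the 9 genes all tumors were brighter than all control glands, where 27.1% of all genes did so, and for 2 of the 9 all were dimmer, where 23.1% of all genes did so. An exact permutation test on 3 tumors and 3 control glands cannot give a 2-sided p below 0.1, and limma draws on the variance of all genes. Without control replicate 3 or without tumor replicate 1, the inhibitors called higher were 3, *Rnf43*, *Znrf3* and *Wif1*, where 10.4% and 12.7% of all genes tested were.

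**Figure D1:**
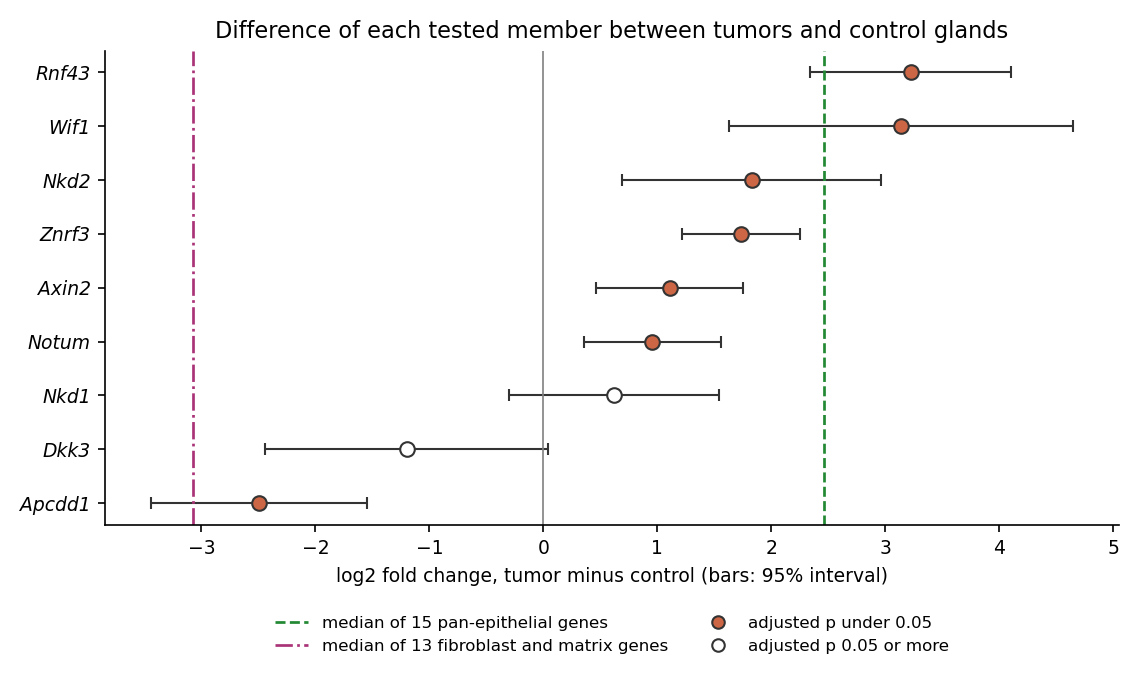
Log2 difference, tumor minus control, on the horizontal axis for the 9 inhibitors that passed the filter, with 1 line per gene and bars for the 95% interval of the limma fit. Filled points mark genes called at an adjusted p under 0.05, and the vertical lines mark 0, the median of 15 pan-epithelial genes at 2.46 and the median of 13 genes of fibroblasts and matrix at −3.07. The points of *Rnf43* and *Wif1* lie to the right of the epithelial median, but the intervals of both include it, and *Apcdd1* lies far to the left of 0.

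Of the genes called higher, the RefSeq promoters used here (build GRCm38.p6) covered 4. The 250 bases before each transcript start are shown here, 5′ to 3′ in the direction of the gene. Letters bound by TCF/LEF factors were searched on both strands as CTTTGAT, or CTTTGAA, or CTTTGTT, or CTTTGTA, and none was found in the 7 promoters that the table holds for 6 of the 10 genes, whereas 14.8% of all 32851 promoters in the table hold at least 1. The shorter CTTTG, which is part of each of them and was searched afterwards, on both strands as CTTTG and CAAAG, occurs in 48.6% of all promoters and in 2 of these 7, those of *Wif1* and *Dkk2*. Capitals mark it. The absence of the letters from this window says nothing of sites elsewhere.
Axin2 (chr11:108920099-108920348, plus strand): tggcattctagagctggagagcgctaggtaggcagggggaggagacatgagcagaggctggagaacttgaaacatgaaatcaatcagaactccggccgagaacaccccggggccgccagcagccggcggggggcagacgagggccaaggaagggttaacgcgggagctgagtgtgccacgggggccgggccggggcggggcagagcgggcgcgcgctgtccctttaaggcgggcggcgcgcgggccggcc
Rnf43, start site 1 (chr11:87662837-87663086, plus strand): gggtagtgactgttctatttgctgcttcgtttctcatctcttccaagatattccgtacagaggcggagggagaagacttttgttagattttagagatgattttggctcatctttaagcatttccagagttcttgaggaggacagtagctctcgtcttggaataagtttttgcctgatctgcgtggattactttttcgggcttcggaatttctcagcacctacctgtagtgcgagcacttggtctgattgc
Rnf43, start site 2 (chr11:87699647-87699896, plus strand): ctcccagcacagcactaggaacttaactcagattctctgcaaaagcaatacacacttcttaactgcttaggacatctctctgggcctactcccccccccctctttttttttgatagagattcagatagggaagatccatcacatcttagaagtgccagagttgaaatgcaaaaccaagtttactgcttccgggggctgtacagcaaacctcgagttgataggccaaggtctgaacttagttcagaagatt
Wif1 (chr10:121033754-121034003, plus strand): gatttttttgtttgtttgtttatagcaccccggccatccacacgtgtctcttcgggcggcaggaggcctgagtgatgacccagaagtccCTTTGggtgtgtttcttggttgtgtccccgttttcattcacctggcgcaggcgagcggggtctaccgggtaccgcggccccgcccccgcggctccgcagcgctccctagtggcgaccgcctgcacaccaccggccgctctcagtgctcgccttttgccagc
Nkd2 (chr13:73847632-73847881, minus strand): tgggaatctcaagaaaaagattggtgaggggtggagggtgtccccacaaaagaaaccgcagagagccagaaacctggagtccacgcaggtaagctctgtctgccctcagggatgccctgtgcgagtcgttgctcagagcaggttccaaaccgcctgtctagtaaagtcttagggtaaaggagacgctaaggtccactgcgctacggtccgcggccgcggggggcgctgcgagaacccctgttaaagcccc
The GC content of these windows was 69.2% for *Axin2*, 44.4% and 45.2% for the start sites of *Rnf43*, 62.8% for *Wif1* and 58.4% for *Nkd2*, against a median of 52.4% over all promoters. *Znrf3*, *Notum*, *Apcdd1* and *Dkk3* have no entry among the promoters used here.

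The transmembrane ubiquitin ligases *Rnf43* and *Znrf3*, which remove Frizzled receptors from the cell surface and are themselves countered by R-spondins, were both higher in every tumor. *Rnf43*, read by 1 probe set, had signals of 204.5, 95 and 249 in controls, against 1473, 1400 and 1913 in the tumors. The dimmest tumor was several times as bright as the brightest control gland, and on the log2 scale the SD was 0.24 among tumors and 0.74 among control glands. The mean of the 3 tumors was 1595 ± 277 (SD) and that of the 3 control glands 183 ± 79.4 (SD), which gave a log2 difference of 3.22 (95% interval 2.34 to 4.10, adjusted p = 0.00114 from limma), which is a 9.34-fold difference. For *Znrf3* the probe set that stood for the gene had 497, 516 and 480.2 in controls, against 1596, 1388 and 2063 in tumors. The control glands were nearly equal, with an SD of 0.05 on the log2 scale, and the groups were far apart. The log2 difference was 1.74 (95% interval 1.22 to 2.26, adjusted p = 0.00162), a 3.33-fold difference. A second probe set of *Znrf3* failed the filter, with 59.3, 5.2 and 57.6 in controls, against 121, 90.8 and 243 in tumors, and was not tested. The calls of *Rnf43* and *Znrf3* held in all 20 alternatives, between 2.81 and 3.50 and between 1.58 and 1.97 on the log2 scale.

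*Axin2*, the inducible scaffold of the destruction complex and a widely used readout of β-catenin activity, rose by a smaller amount. Its signals were 354, 553 and 393 in controls, against 1020, 698 and 1086 in tumors. The lowest tumor lay above the highest control gland. The means were 935 ± 208 in tumors and 434 ± 105 in control glands, a log2 difference of 1.11 (95% interval 0.47 to 1.75, adjusted p = 0.02 from limma). The call held in 13 of 20 alternatives. The adjusted p was 0.066 without control replicate 1, 0.0703 without control replicate 3, 0.0538 without tumor replicate 1 and 0.0619 without tumor replicate 3, and it was 0.0524 with no filter on low signals. The log2 difference itself stayed between 0.98 and 1.35. The other probe set of *Axin2* had 5.1, 33.8 and 15.2 in controls, against 89.3, 37.7 and 25.1 in tumors, below the level of the filter on all 6 arrays.

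**Figure D2:**
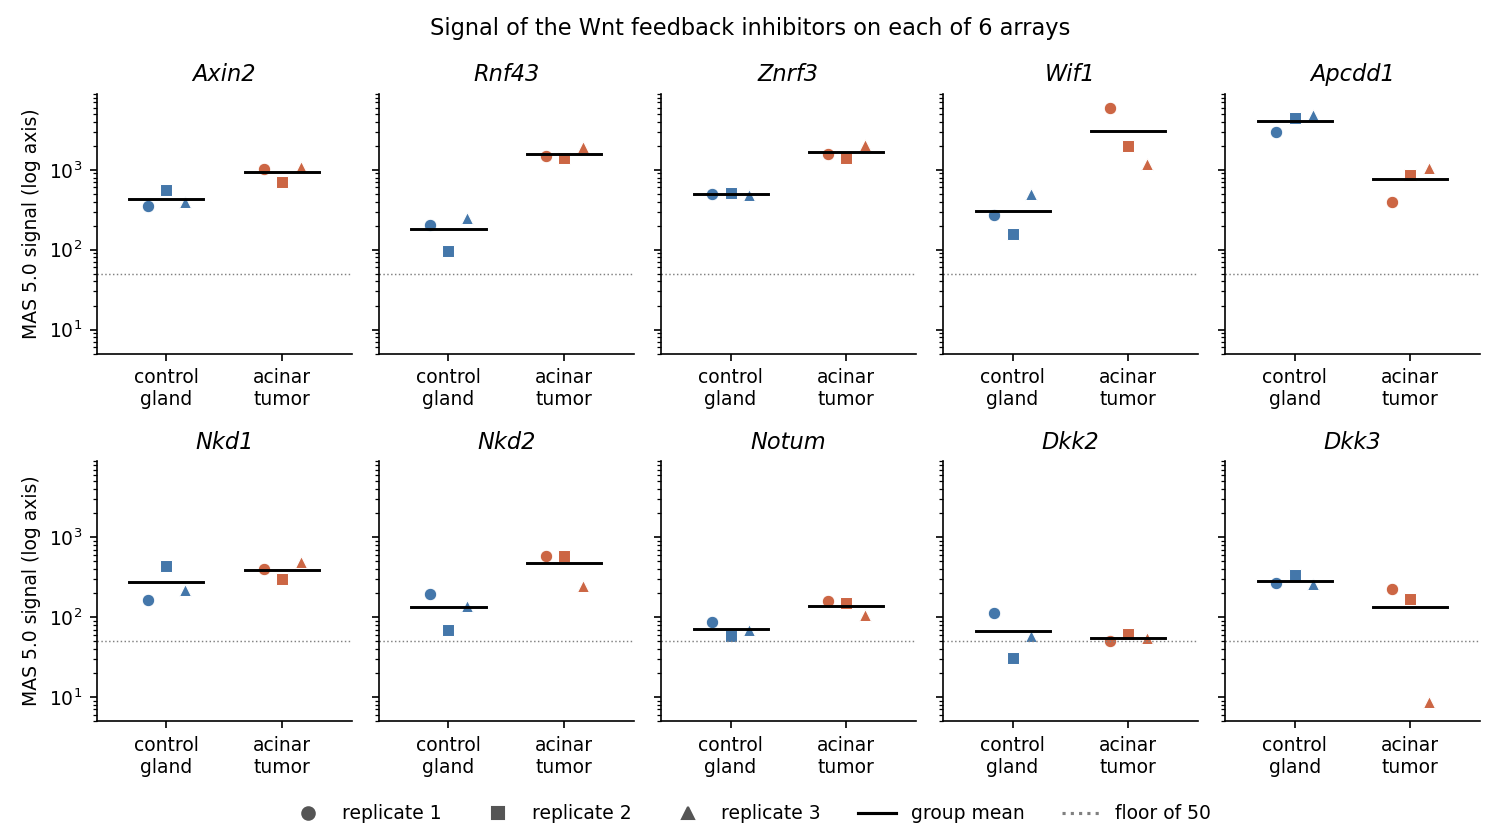
Signals of the 10 inhibitors, plotted on a log axis, in 3 control glands and 3 acinar tumors, with 1 point per array, a marker shape per replicate, a black line at the mean of each group and a dotted line at the floor of 50. The probe set that stood for the gene is shown, and for *Dkk2* the only one. Levels can be set against each other only within a gene: in *Rnf43* the tumors lie between 1400 and 1913 and the control glands between 95 and 249, while in *Nkd1* the groups overlap.

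*Nkd1* and *Nkd2* encode the naked cuticle proteins, which bind Dishevelled. *Nkd2* was called higher and *Nkd1* was not, and the difference between the genes was not tested. *Nkd2* had 198, 68.3 and 139 in controls, against 585, 581 and 248 in tumors. All tumors were above all control glands, but tumor replicate 3 was much dimmer than the other tumors. The log2 difference was 1.83 (95% interval 0.69 to 2.96, adjusted p = 0.0254 from limma), or 3.55-fold. The call held in 14 of 20 alternatives. It was lost without control replicate 2 (adjusted p = 0.0623) or 3 (0.0582) and without tumor replicate 1 (0.0698) or 2 (0.0868), and with no filter it was 0.101. Adjusted over all 26967 probe sets kept, 1 of the 4 probe sets of *Nkd2* was called. Of the others, 1 had 1.44 (adjusted p = 0.0522), 1 had 1.85 with an adjusted p of 0.0526, and the last had 0.55 with an adjusted p of 0.151.

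*Nkd1* had 164, 442 and 219 in controls, against 397, 297 and 490.0 in tumors. Control replicate 2 lay among the tumors, so that the groups overlapped, and the log2 difference of 0.62 did not pass the test (95% interval −0.30 to 1.54, adjusted p = 0.262). Without control replicate 2 it was 1.03 (adjusted p = 0.0514), and without control replicate 1 it was 0.31. The interval includes both no change and a change as large as that of *Axin2*. Another probe set of *Nkd1* was called higher, with 53.6, 85.5 and 57.9 in controls, against 103, 165 and 201 in tumors (log2 difference 1.23, adjusted p = 0.027 over all probe sets, of which 11.7% were called higher). It passed the filter only through the tumors. The remaining ones gave 0.23 (adjusted p = 0.760) and 0.06 (adjusted p = 0.881).

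Of the secreted inhibitors, *Wif1* and *Notum* were higher and neither dickkopf gene was called. *Wif1*, whose protein binds Wnt ligands outside the cell, had 268, 155 and 497 in controls, against 5976, 1976 and 1195 in tumors. The groups did not overlap, but the tumors differed 5.001-fold among themselves, with tumor replicate 1 far above the others. The log2 difference was 3.14 (95% interval 1.63 to 4.65, adjusted p = 0.0099 from limma), or 8.80-fold. It was 2.48 without tumor replicate 1 (adjusted p = 0.0159) and 3.65 without tumor replicate 3 (adjusted p = 0.0114). With no filter on low signals the call was lost (adjusted p = 0.0607). *Notum*, an esterase that cuts the lipid from Wnt proteins, had 87, 58.5 and 68.3 in controls, against 158, 151 and 107 in tumors. All 6 signals were low, and the 1.94-fold difference (log2 difference 0.96, 95% interval 0.36 to 1.56, adjusted p = 0.0265) depended on the floor. With a floor of 100 it was 0.45 on the log2 scale (adjusted p = 0.148), since every control gland lies under that floor. The call was also lost without control replicate 2 (0.0757) or 3 (0.0835) and with no filter (0.0549), and *Notum* failed the filter when any tumor was left out.

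*Dkk2* and *Dkk3* belong to the dickkopf family, of which Dkk2 binds the Lrp5 and Lrp6 coreceptors. *Dkk2* failed the filter, with 113, 31.2 and 58.5 in controls, against 50.9, 61.4 and 54.6 in tumors, so that only control replicate 1 reached 100 and no test was made. *Dkk3* had 266, 336 and 258 in controls, against 225, 169 and 8.7 in tumors. Every tumor lay below every control gland, and tumor replicate 3 was far below the floor. The log2 difference of −1.20 did not pass the test (95% interval −2.44 to 0.04, adjusted p = 0.121 from limma). Its size rested on tumor replicate 3, without which it was −0.55 (adjusted p = 0.171), and on the lowest signal allowed, since a floor of 16 gave −1.75. The second probe set of *Dkk3* had 220, 275 and 146 in controls, against 216, 83.2 and 13.1 in tumors, with the tumors in the same order.

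*Apcdd1*, which encodes a membrane glycoprotein that binds Wnt ligands and the Lrp5 coreceptor, was the only inhibitor called lower. Its signals were 2957, 4507 and 4826 in controls, against 393, 859 and 1063 in tumors. The brightest tumor stayed far below the dimmest control gland. The means were 772 ± 343 in tumors and 4097 ± 999.8 in control glands, a log2 difference of −2.49 (95% interval −3.44 to −1.55, adjusted p = 0.00402 from limma), or 5.64-fold. The call held in all 20 alternatives. Of its 6 probe sets, 5 passed the filter and all 5 were called lower, between −2.49 and −1.78 on the log2 scale, where 14.6% of all probe sets kept were called lower. The probe set that stood for the gene is of a type that may also bind other transcripts. Without probe sets of that type the gene was represented by one with 1003, 1745 and 1723 in controls, against 323, 436 and 515 in tumors, a log2 difference of −1.79 (adjusted p = 0.00476).

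The tumors did not rank alike for all inhibitors. Tumor replicate 1 had the highest and tumor replicate 3 the lowest signal for *Wif1*, *Nkd2*, *Notum* and *Dkk3*, whereas tumor replicate 3 had the highest signal for *Axin2*, *Rnf43*, *Znrf3*, *Nkd1* and *Apcdd1*. Tumor replicate 2 was the lowest for *Axin2*, *Rnf43*, *Znrf3* and *Nkd1*, and tumor replicate 1 for *Apcdd1*. The SD of the log2 signal among tumors was 0.24 for *Rnf43*, 0.29 for *Znrf3*, 0.31 for *Notum*, 0.35 for *Axin2* and 0.36 for *Nkd1*. It was 0.71 for *Nkd2*, 0.76 for *Apcdd1*, 1.15 for *Dkk3* and 1.19 for *Wif1*.

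The cellular makeup of the samples moved with the groups. Of 15 pan-epithelial genes tested, 13 were higher in tumors and none was lower, with a median log2 difference of 2.46, and their summed signal was 13736 to 30848 in controls and 92935 to 121050 in tumors. The increase of *Axin2* was exceeded by 13 of these 15 epithelial genes, that of *Notum* also by 13, those of *Znrf3* and *Nkd2* by 11, that of *Wif1* by 3 and that of *Rnf43* by 1. Of 13 genes of fibroblasts and matrix, 12 were lower and none was higher, with a median of −3.07 and sums of 76536 to 95510 in controls and 6243 to 21808 in tumors. In adipocytes 9 of 10 genes were lower (median −5.80, sums of 137630 to 178930 and of 6540 to 15177), in endothelium 8 of 10 (median −1.71) and in immune cells 4 of 7 (median −1.53). The fibroblast sum was 21808, 14111 and 6243 in tumor replicates 1 to 3. The sums for adipocytes, endothelium, immune cells and skeletal muscle fell in the same order. Those of the pan-epithelial and the hormone-sensing luminal genes rose from tumor replicate 1 to 3. *Dkk3*, *Wif1*, *Nkd2* and *Notum* also fell in this order, *Apcdd1* rose, and the other inhibitors tested did neither. With 3 tumors such orders can match by chance, and no link was tested. Of 6 genes of hormone-sensing luminal cells tested, 5 were lower and 1 was higher (median −2.30). The lower ones included *Foxa1*, a transcription factor of these cells, with 2737, 1922 and 2709.8 in controls and 118, 107 and 93 in tumors (log2 difference −4.52, adjusted p = 0.000126). The higher one was *Prom1*, a surface protein also known as CD133, with 771, 706 and 391 in controls and 1396, 6289 and 6701 in tumors (log2 difference 2.70, adjusted p = 0.015). Of 10 genes of luminal secretory cells, 1 was lower and none was higher (median 1.18). Their sum was uneven, with 101255, 11556 and 97396 in control replicates 1 to 3 and 117919, 63552 and 153606 in tumor replicates 1 to 3. Control replicate 2 also had the lowest pan-epithelial sum. Of 4 genes of Schwann cells and nerve, 1 was higher and 2 were lower (median −1.38). Genes of basal and myoepithelial cells had a median of 0.40, with 3 of 11 higher and 1 lower, and their sum was highest in tumor replicate 1. Of 20 genes of epidermis and hair follicle, where Wnt inhibitors are also expressed and which lie close to the gland, 6 were tested, 1 was higher and none was lower. Their sum was 1248 to 4612 in controls and 2828 to 4293 in tumors. Much of this sum came from *Gata3* and *Krt10*, both named after their values were seen. *Gata3* had 1137, 655 and 1296 in controls, against 1224, 991 and 3005 in tumors. *Krt10* had 292, 242 and 1787 in controls, against 1640, 1032 and 465 in tumors, and was above *Gata3* in control replicate 3 and in tumor replicates 1 and 2. The sum for skeletal muscle was 6562, 190298 and 69336 in control replicates 1 to 3 and 38109, 1705 and 508 in tumor replicates 1 to 3, and none of its 8 genes was called. Whether these differences in makeup have a part in those of the inhibitors was not tested.

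Other genes of the pathway did not share a direction. Of 30 further Wnt inhibitors, 23 were tested, 4 were higher and 7 lower, and the median log2 difference was −0.01. *Dkkl1*, related to the dickkopf genes by sequence, had 145, 88 and 181 in controls, against 1540, 2930 and 3885 in tumors, a log2 difference of 4.30 (adjusted p = 0.000541 from limma). The call of *Dkkl1* held in 19 of 20 alternatives and was lost by the methods' t-test. *Sfrp5*, a secreted Frizzled-related protein, fell by 2.89 (adjusted p = 0.01), *Dact1*, which binds Dishevelled, fell by 2.05 (adjusted p = 0.0448) and the repressor *Tcf7l1* fell by 2.01 (adjusted p = 0.0174), all on the log2 scale. The corepressors *Tle1* and *Tle4* had −0.01 (adjusted p = 0.985) and −0.10 (adjusted p = 0.815). The call of *Tcf7l1* was lost without control replicate 3 (adjusted p = 0.051), without tumor replicate 2 (0.0554) or 3 (0.0578) and with no filter (0.0782), and that of *Sfrp5* with no filter (0.0602) and by the methods' t-test. The call of *Dact1* held in 12 of 20 alternatives, and its log2 difference was −1.28 without tumor replicate 3. Of the list, 3 genes were lower without tumor replicate 2, 4 without control replicate 3 and 1 with no filter.

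Of 40 genes known as Wnt targets in 1 tissue or another, with the inhibitors left out, 24 were tested, 7 were higher and 7 lower, with a median of 0.07. *Tnfrsf19*, also called Troy, a receptor of the TNF family, had 60.9, 260 and 130 in controls, against 6256, 5298 and 7030 in tumors. Its log2 difference of 5.596 (adjusted p = 0.000392 from limma) became 3.72 when its probe sets were averaged. The tight junction gene *Cldn1* rose by 3.40 (adjusted p = 0.000453) and the R-spondin receptor *Lgr6* by 3.35 (adjusted p = 0.00818), while *Procr*, a surface protein of mammary stem cells and of endothelium, fell by 2.82 (adjusted p = 0.00347). The call of *Lgr6* was lost with no filter (adjusted p = 0.0539) and by the methods' t-test, and that of *Procr* by the methods' t-test. *Sox9* and *Ephb3* had 0.04 (adjusted p = 0.964) and 0.09 (adjusted p = 0.833). Without control replicate 3, 3 genes of this list were lower, and without control replicate 1 or 2 it was 4.

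Of 33 genes of Wnt reception and the destruction complex, 26 were tested, 5 were higher and 2 lower, with a median of 0.11. The Frizzled receptor *Fzd4* fell by 3.58 (adjusted p = 0.000149 from limma) and the R-spondin receptor *Lgr5* fell by 2.06 (adjusted p = 0.00137), whereas *Fzd9* rose by 2.21 (adjusted p = 0.0111). *Fzd9* passed the filter only through the tumors and failed it when any tumor was left out. It lost its call with no filter (adjusted p = 0.059) and by the methods' t-test. *Lgr5*, with 323, 219 and 277 in control glands, had 51.2, 72.7 and 72.3 in tumors, and passed the filter only through the control glands. *Gsk3b* and *Dvl2* had −0.02 (adjusted p = 0.955) and 0.10 (adjusted p = 0.791). Of the genes on these 3 lists, 4 stand on 2 lists and were counted in each, *Lgr5*, *Lgr6*, *Fzd7* and *Axin1*. *Axin1*, the constitutive counterpart of *Axin2*, rose by 0.93 (adjusted p = 0.022), and was named after its value was seen. Without any 1 control replicate *Lgr5* failed the filter, which left 1 gene called lower, and without control replicate 3, tumor replicate 1 or tumor replicate 3 the genes called higher were 3.

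**Figure D3:**
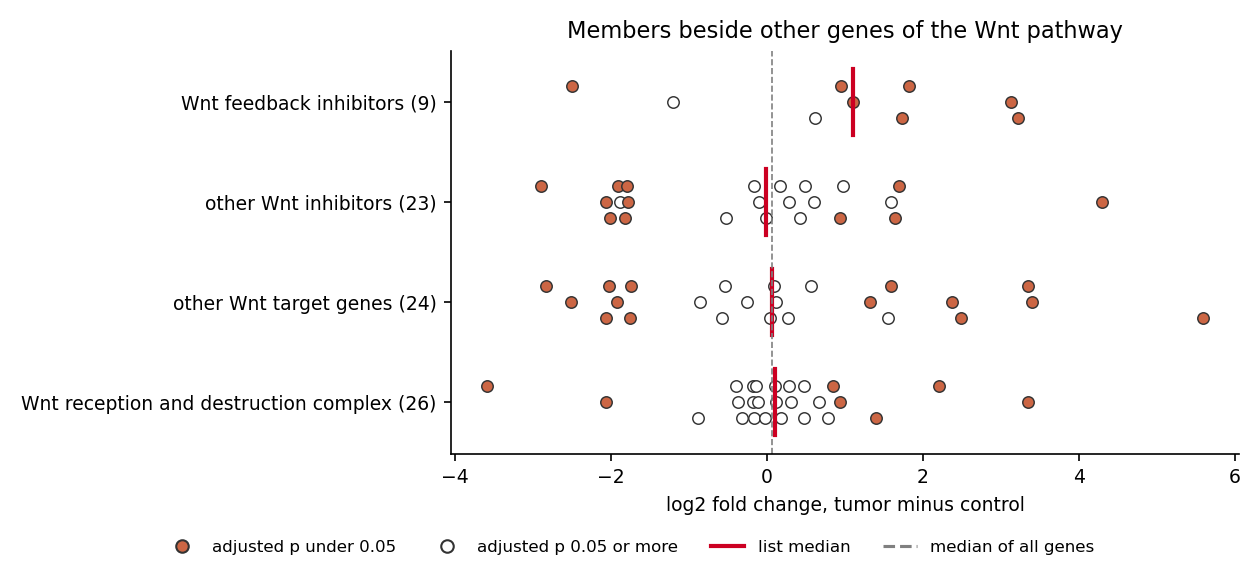
Log2 difference, tumor minus control, on the horizontal axis for the tested genes of 4 lists, with 1 point per gene and the number tested beside each name. Filled points are genes called by limma, the red line is the median of a list and the dashed line that of all genes. The median is 1.11 for the feedback inhibitors against −0.01, 0.07 and 0.11 for the other lists. All 4 lists were chosen with earlier results of these data known, so that this contrast is not independent of the choice.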

How the data were processed

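The authors hybridized RNA of 3 acinar-type tumors and 3 control glands to Affymetrix M430 2.0 arrays, 1 per sample, and made 1 signal intensity per probe set with MAS 5.0, scaled to a target of 500. The sources used here give no version of it. The deposited intensity values are linear, and no detection calls were used.

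Of 45101 probe sets, 64 controls were left out. The platform annotation gave 34945 probe sets 1 symbol, 932 several and 9160 none, and 0 symbols needed an update. A floor of 50 was put under the signals before log2 was taken, which understates the change of dim genes, and folds are 2 to the power of the log2 difference. Probe sets with at least 100 on at least 3 arrays were kept (26967, of which 22492 named), and the brightest by mean log2 signal stood for each of 12518 genes. Groups were compared with limma 3.58.1 in R 4.3.3, 2-sided, with Benjamini-Hochberg adjustment over all genes, called under 0.05 with no fold limit. Single probe sets were tested in a fit over all 26967. The number of arrays limits the precision.

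The 20 alternatives were a floor of 16 or of 100, 50 added before log2 instead of a floor, arrays set to equal medians or quantile-normalized, a filter at 200 or none, a trend in the variance, a block for the replicate number, leaving out any 1 array, no _s_at or _x_at probe sets, all probe sets of a gene averaged, all probe sets, the methods' t-test (linear signals, unequal variances, a statistic of at least 4.5 and a ratio of at least 2) and a 2-fold limit. The steps were tested on simulated data. The members, the 3 pathway lists and the 11 marker lists were chosen with earlier results of these data known. The rule names all 10 members, *Apc*, of each pathway list up to 4 called genes with the largest change and the 2 with the highest adjusted p, and of each marker list up to 2 called genes.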

Additional observations from a re-analysis of the deposited data

How the results depend on the processing

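The 9 inhibitors tested kept their direction under every alternative that could be run for them. Of them, 2 were called higher with no filter, where 9.36% of 18193 genes were, and 2 by the methods' t-test, where 5.47% of all genes were. They were *Rnf43* and *Znrf3* both times, against 6 and 16.3% in the main setting. Leaving out 1 array gave 3 to 5 higher and 1 lower, where 10.4% to 12.7% of all genes tested were higher and 9.67% to 16.6% lower. *Notum* failed the filter at 200 and without any tumor replicate. With equal array medians the median log2 difference of all genes was 0.31 in place of 0.07 and 64.5% of calls were higher in place of 49.4%. The same 6 inhibitors were called higher and the same 1 lower. Of all genes tested, 24.2% were then called higher and 13.3% lower, in place of 16.3% and 16.8%.

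The replicate numbers of the labels did not pair the samples. Deviations from the group means correlated at −0.222, 0.0206 and 0.0379 between tumor and control of the same number, and at −0.161 to 0.134 between different numbers. With the replicate block 5 inhibitors were higher, *Axin2* no longer passed (adjusted p = 0.0559), and none of the other 8 members tested changed its call. Of the further inhibitors *Dact1* lost its call (adjusted p = 0.0648), which left 6 of them lower.

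For the other lists, the methods' t-test gave 1 higher and 2 lower of the further inhibitors and 1 higher of reception and destruction complex, the 2-fold limit and the mean over probe sets gave 3 higher of the latter, and no filter gave 1 lower of the further inhibitors. Leaving out 1 array gave 3 to 4 higher and 3 to 8 lower of the further inhibitors, 6 to 7 higher and 3 to 8 lower of the targets, and 3 to 4 higher and 1 to 3 lower of reception. Over all genes the 2-fold limit gave 1329 higher, all probe sets 3160 higher and 3940 lower, the methods' t-test 685 higher and 920 lower, and leaving out 1 array 1241 to 1545 higher and 1151 to 2012 lower.

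Log2 differences that turned sign belonged to genes that were not called. With equal array medians *Apc* had 0.056, *Gsk3b* 0.22, *Tle1* 0.23 and *Tle4* 0.14, and with quantile normalization *Tle1* had 0.016. As the mean over probe sets *Gsk3b* had 0.074 and *Tle4* 0.13, and by the methods' t-test *Sox9* had −0.22. Leaving out 1 array gave −0.092 to 0.13 for *Tle1*, −0.31 to 0.094 for *Tle4*, −0.14 to 0.10 for *Gsk3b*, −0.72 to 0.47 for *Sox9*, −0.082 to 0.31 for *Ephb3* and −0.14 to 0.30 for *Dvl2*. The cause of these changes was not tested.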
